A study of Homo sapiens with 33 samples.

Results

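NF-kB is a family of transcription factors built from pairs of 5 Rel proteins, and transcripts of its components and feedback genes were followed in THP-1 cells given retinoic acid (RA), tumor necrosis factor (TNF) or both. The 39 genes listed for the pathway comprised its subunits, the IkB inhibitors, upstream kinases and adaptors, ubiquitin-editing brakes and a set of inducible response genes. A member was represented by the probe set that the array annotation gives to its symbol alone and, where there were several, by the one of highest mean over all arrays. Of the 39 genes, 35 had such a probe set (83 probe sets in all), out of 19775 genes so represented on the array. BCL3, whose probe sets the annotation lists with a second symbol, and BIRC3, TRAF2 and RIPK1, for which the table used here gives no probe set, were not analysed here. MAP3K14 and TNIP3 fell below the filter on dim probe sets, so 33 members were tested in each experiment.

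In resting cells NF-kB dimers are held in the cytoplasm by IkB proteins. Binding of TNF to its receptor assembles a complex of adaptors and ubiquitin ligases that activates the IkB kinases, and the IkB proteins are then phosphorylated and degraded, so that the dimers enter the nucleus. Among the genes they switch on are their own inhibitors and the deubiquitinating enzymes that dismantle the receptor complex, which makes the response self-limiting, and in monocytes adhesion molecules, cytokines and survival genes.

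THP-1 cells are an established human line derived from an acute monocytic leukaemia. Total RNA was measured on 33 Affymetrix arrays, each from its own culture well of this 1 line, so that p-values measure the spread between wells. Experiment 1 was harvested at 40 h. Its 5 RA plus TNF wells received 20 nM all-trans RA for 40 h, renewed after 16 h, and 5 ng/ml TNF for the last 24 h. The 5 TNF wells received TNF alone for 24 h, the 5 RA wells RA alone for 40 h, and the 6 vehicle wells 0.1% ethanol. The RA time course had 2 wells harvested 2 h after RA, 2 after 6 h, 3 after 16 h and 2 after 40 h, set against 8 vehicle wells (5 taken as harvested at 16 h and 3 at 40 h). The labels are at odds, since the titles of all 8 vehicle wells call them 0 h controls. For the 5 wells the treatment text gives 16 h in ethanol. The other 3, taken as harvested at 40 h, are also vehicle wells of experiment 1. The time without RA behind the time-course differences is therefore uncertain, as is the harvest time of those 3 wells in experiment 1. The 40 h wells of the time course, RA and vehicle, also belong to experiment 1.

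Levels are given as signals of the array software, recovered from the deposited values. Fold changes come from the deposited log2 values, which are relative to each array's median, and need not equal the ratio of mean signals. Errors beside log2 differences are standard errors of the limma fit, and adjusted p-values are Benjamini-Hochberg values over all genes tested. A gene is called where this value is under 0.05. Array record numbers fall into 2 runs, array set 1 (12 arrays) and array set 2 (21 arrays), and each group of experiment 1 holds arrays of both. Array medians ran from 18.9 to 45.2 signal units. Of 14 monocyte and macrophage markers, 12 had a probe set, and FCGR1A (22.2 units on average) and MPO (31.7) were near the array medians. The 12 summed to 21043 to 24314 units with RA plus TNF, 18362 to 22676 with TNF, 23699 to 29629.5 with RA and 24268 to 30277 in vehicle. ELANE made up much of these sums, at group means of 4693 units with RA plus TNF, 7402 with TNF, 10178 with RA and 13169.8 in vehicle, while CD14 and CSF1R had their highest means with RA plus TNF. CD14 averaged 1565 units with RA plus TNF, 114 with TNF, 77.9 with RA and 29.4 in vehicle, and CSF1R 1244 with RA plus TNF and 446 in vehicle. In group mean ELANE, LYZ, FCGR1A and MPO were lower with RA plus TNF than in vehicle, and the other markers of the 12 were higher. The lower sums with RA plus TNF therefore do not describe most of these markers. Lymphocyte markers, 8 of 9 with a probe set, summed to 444 to 565 units with RA plus TNF, 480.1 to 629.9 with TNF, 278 to 401 with RA and 278 to 608 in vehicle. Of the 8 markers, NKG7 averaged 237 units over all arrays and CD79A 73.7. The group means of NKG7 were 356 units with RA plus TNF, 367 with TNF, 132 with RA and 181 in vehicle. The part of these sums in the results was not tested. In bulk RNA, fewer cells with a transcript and less of it per cell cannot be told apart.

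TNF alone raised 20 of the 33 tested members and lowered 0, with calls in all 6 role groups. The background was 6.69% of the 12393 genes tested called higher and 4.62% called lower. The median log2 difference was 0.98 over the members and -0.01 over all genes. In 17 of the 33 tested members every TNF array lay above every vehicle array, as it did in 3% of all genes tested. All 17 were among the 20 called, the exceptions being NFKBIB, TNFAIP8 and TRAF3, and of the 829 genes called higher over the whole array 41.9% had groups so separated. All 20 had a positive difference within each array set. The plot of log2 differences by role sets these changes beside those of RA and of RA plus TNF, which share the same 6 vehicle arrays and are therefore not independent of one another.

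**Figure D1:**
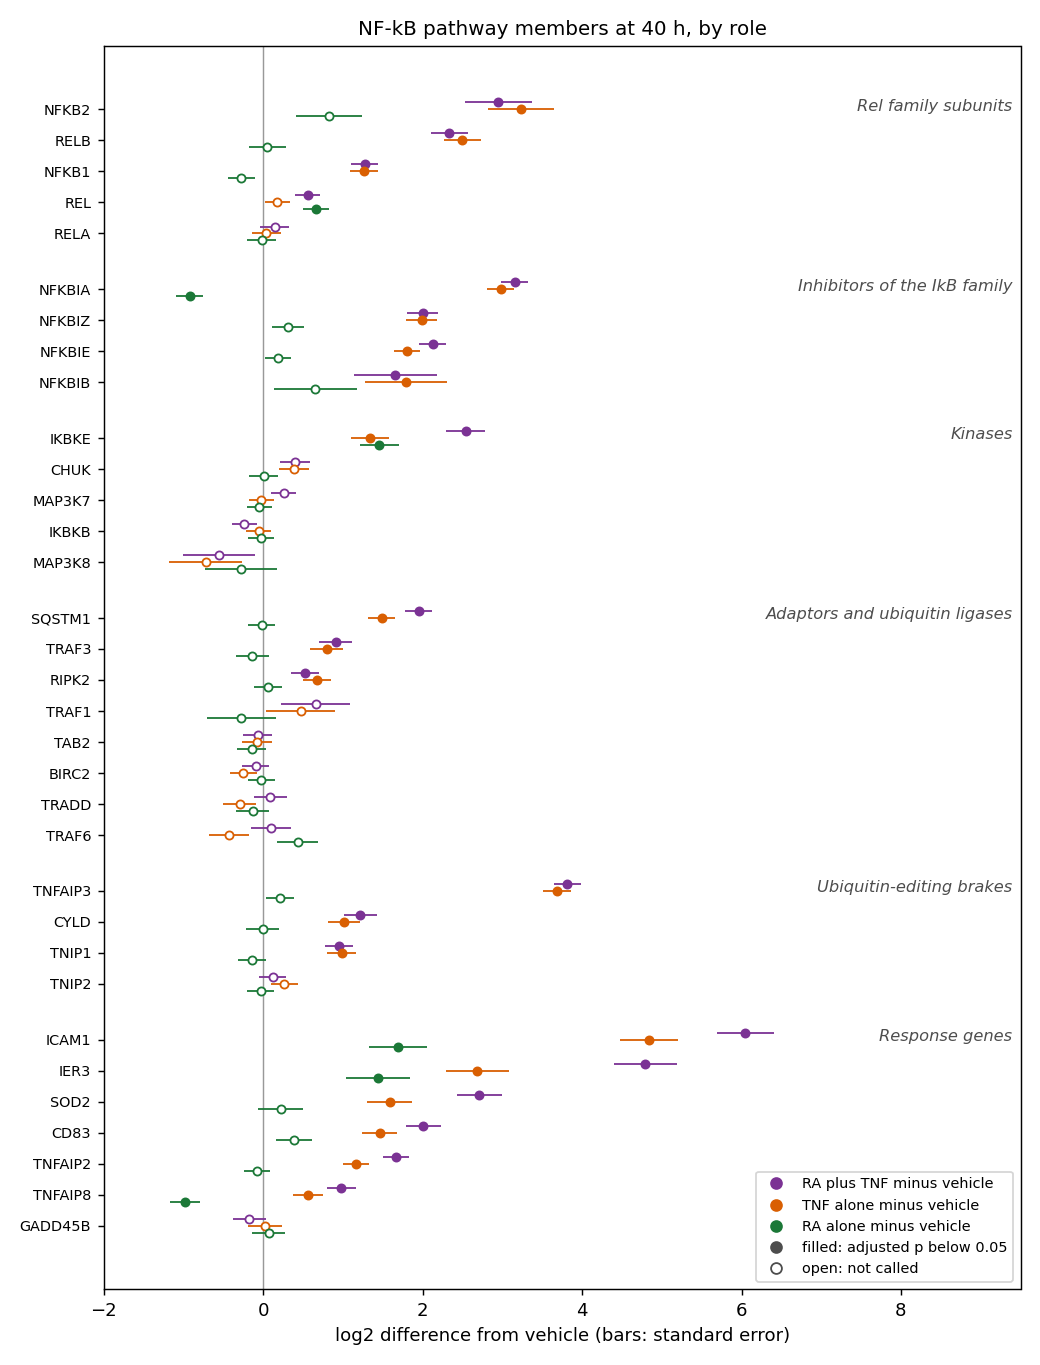
Log2 difference from vehicle at 40 h (x axis) for the 33 tested members (y axis), grouped by role, with standard errors as bars and filled points for adjusted p under 0.05. The TNF and RA plus TNF points of TNFAIP3, NFKBIA, NFKB2 and RELB lie close together, while RA plus TNF lies to the right of TNF for ICAM1 (6.05 against 4.84), IER3 (4.79 against 2.69), SOD2 (2.71 against 1.59) and IKBKE (2.54 against 1.34).

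Among the Rel subunits, NFKB1, NFKB2 and RELB rose with TNF, while RELA and REL were not called. NFKB1 encodes p105, the precursor of p50 and itself an IkB-like inhibitor. Its signals were 844, 1005, 985, 1048 and 1028 with TNF, against 356 to 471 (median 445) in vehicle. The groups stood wholly apart, at a 2.4-fold difference (log2 1.26 ± 0.17, adjusted p = 9.44e-07). NFKB2 encodes p100, the precursor of p52 and the inhibitor of the non-canonical branch. It gave 230.4, 396, 252, 329.7 and 426 units with TNF, against 5.6 to 89.9 (median 41.6) in vehicle. No TNF array was as low as the highest vehicle array, though the vehicle arrays were widely spread (log2 3.24 ± 0.42, adjusted p = 3.71e-07). RELB, the partner of p52, had 495, 496, 496, 458 and 475 units with TNF, against 63.0 to 140.3 (median 83.1) in vehicle. The TNF arrays of RELB were nearly alike and all above vehicle (5.65-fold, log2 2.50 ± 0.23, adjusted p = 3.41e-10). RELA, the p65 subunit that carries most canonical activity, had 356, 440.5, 393, 716 and 601 units with TNF, against 431 to 596 (median 500.3) in vehicle. These ranges overlapped (log2 0.04 ± 0.18, adjusted p = 0.943). REL, which encodes c-Rel, likewise overlapped, at 586, 461, 509.9, 412 and 414 units with TNF against 389.9 to 508 (median 416) in vehicle (log2 0.18 ± 0.16, adjusted p = 0.57).

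All 4 tested IkB family genes rose with TNF. NFKBIA encodes IkB-alpha, the inhibitor that is degraded first and resynthesised as the main negative feedback. It gave 8129.8, 9236, 8964, 5349 and 6832 units with TNF, against 621 to 1679.7 (median 921) in vehicle. The lowest TNF array was more than 3 times the highest vehicle array (7.87-fold, log2 2.98 ± 0.17, adjusted p = 1.39e-15). Its arrays also differed by set, at 1679.7, 1076 and 1212 units in the vehicle arrays of set 1 against 658, 765 and 621 in those of set 2. Within the sets the TNF difference was 2.77 and 3.23 log2 units. NFKBIE (IkB-epsilon), a slower feedback inhibitor, had 907, 1073, 909, 1038 and 1096 units with TNF, against 237 to 365 (median 279) in vehicle. Every TNF array was higher (3.5-fold, log2 1.81 ± 0.17, adjusted p = 3.21e-10). NFKBIZ (IkB-zeta), a nuclear member that acts as a cofactor at secondary response genes, had 658, 554, 663, 612 and 542 units with TNF, against 122 to 196 (median 162) in vehicle. Its groups did not overlap either (3.97-fold, log2 1.99 ± 0.20, adjusted p = 1.32e-09). NFKBIB (IkB-beta) was called with overlapping groups, at 55.4, 141, 56.9, 149.8 and 336 units with TNF against 8.5 to 147 (median 58.0) in vehicle (log2 1.79 ± 0.52, adjusted p = 0.018). Within array sets 1 and 2 NFKBIB gave 2.58 and 0.97, and neither value passed (adjusted p = 0.0527 and 0.0633).

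A second probe set of NFKBIA was dim, with a mean signal of 36 units against 2905 for the first. It read 58.6, 83.3, 52.2, 37.8 and 32.9 units with TNF, against 1.7 to 79.5 with a median of 5.75 in vehicle. The groups overlapped, and 5.75 units is below the lowest array median, so this probe set gives no firm size although limma called it (log2 2.52 ± 0.71, adjusted p = 0.0191 over 22749 probe sets). Over all comparisons no member had probe sets called in opposite directions. Of the 13 members called with TNF that had further tested probe sets, 9 had another called in the same direction, NFKBIA with this dim probe set among them.

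**Figure D2:**
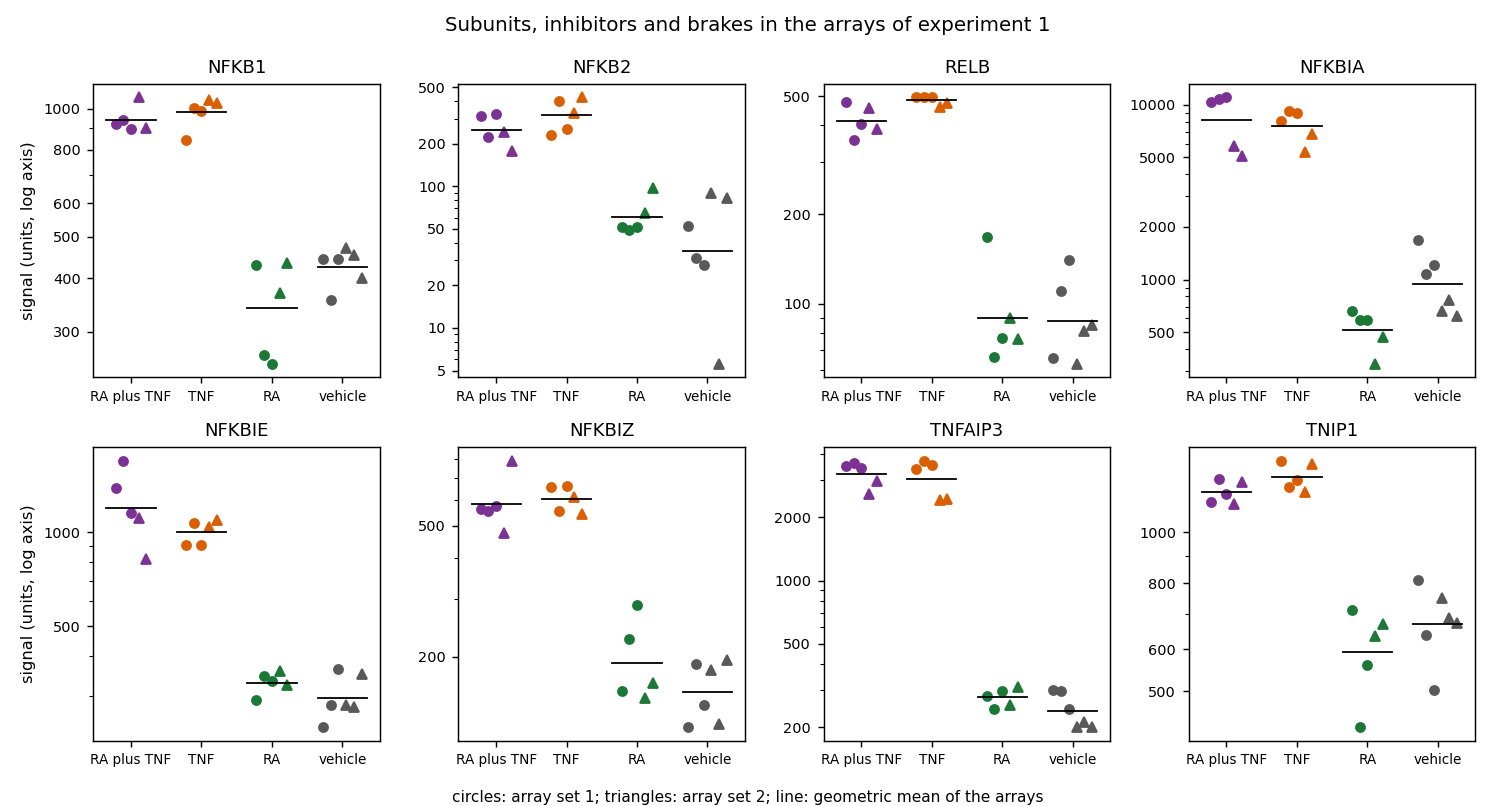
Signal on a log axis (units) in every array of experiment 1 for 3 Rel subunits, 3 IkB genes and 2 brakes, with circles for array set 1, triangles for array set 2 and a line at the geometric mean. In each panel the TNF and RA plus TNF arrays lie above all vehicle arrays, and the triangles of NFKBIA and TNFAIP3 lie below the circles in both of those groups.

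Several of the called members share a sequence feature. Windows of 250 bases upstream of a start site were taken from RefSeq (GRCh38.p14) and held 33 of the 39 members. RELB, NFKBIE, IKBKB, TRADD, RIPK2 and IER3 had none in the table. A narrow form of the kappa B site, which is GGGA and TTCC with any 2 bases between them, searched on both strands, was present for 11 of the 33 members (33.3%). It was present in 1.4% of 35116 windows of the same length and for 1.73% of 27305 genes. The wider NF-kB consensus motif, which contains the narrow one, was present for 16 members (48.5%) and for 11.8% of all genes. By window it was present in 21 of the 60 windows of members and in 9.96% of all windows, and the narrow motif in 12 of the 60. A gene with more windows has more chances of a match. Of the 11 tested members with the narrow motif 9 were called higher with TNF, and of the 16 tested members with a window but no such match 7 were. MAP3K8 and REL had a match and were not called. Members and motif were chosen with earlier results known, so these shares are described and are no independent support. A match in letters is not a bound site. The matches of 9 members are shown because these are the genes whose responses are compared, 5′ to 3′ on the gene's strand, with capitals on the 10 matched bases.
CD83 (chr6:14117707-14117746, plus strand): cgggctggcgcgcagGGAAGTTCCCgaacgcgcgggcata
CYLD (chr16:50741882-50741921, plus strand): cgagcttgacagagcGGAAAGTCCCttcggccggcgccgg
MAP3K8 (chr10:30433977-30434016, plus strand): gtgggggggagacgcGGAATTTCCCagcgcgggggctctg
NFKB1 (chr4:102501295-102501334, plus strand): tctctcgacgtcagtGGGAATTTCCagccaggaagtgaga
NFKB2 (chr10:102395669-102395704, plus strand): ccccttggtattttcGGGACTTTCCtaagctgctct
NFKBIB (chr19:38899927-38899966, plus strand): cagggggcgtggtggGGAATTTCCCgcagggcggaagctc
NFKBIZ (chr3:101827752-101827791, plus strand): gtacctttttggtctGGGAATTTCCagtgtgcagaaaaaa
REL (chr2:60881513-60881552, plus strand): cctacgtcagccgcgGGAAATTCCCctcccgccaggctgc
TNIP1 (chr5:151081052-151081091, minus strand): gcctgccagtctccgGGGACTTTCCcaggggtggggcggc
For CD83, NFKBIB and REL the motif matched on both strands in overlapping positions, and the capitals show 1 of them. The whole window is shown for NFKBIA and TNFAIP3, the feedback genes of largest rise among the inhibitors and brakes, and for ICAM1, the response gene of largest rise. Capitals mark matches to either motif. NFKBIA holds 1 match to both motifs, and TNFAIP3 holds 1 to the narrow motif and 2 to the consensus. ICAM1 has neither in these 250 bases, which says nothing of sites elsewhere or of sites in other forms. Its window does hold GGA and TTCC with 2 bases between them, which lacks only the first G of the narrow motif.
NFKBIA (chr14:35404750-35404999, minus strand): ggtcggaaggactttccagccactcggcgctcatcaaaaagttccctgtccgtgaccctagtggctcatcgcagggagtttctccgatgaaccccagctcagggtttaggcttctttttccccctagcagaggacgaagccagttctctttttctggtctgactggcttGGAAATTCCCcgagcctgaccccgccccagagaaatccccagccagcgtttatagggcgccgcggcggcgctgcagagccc
TNFAIP3 (chr6:137867009-137867258, plus strand): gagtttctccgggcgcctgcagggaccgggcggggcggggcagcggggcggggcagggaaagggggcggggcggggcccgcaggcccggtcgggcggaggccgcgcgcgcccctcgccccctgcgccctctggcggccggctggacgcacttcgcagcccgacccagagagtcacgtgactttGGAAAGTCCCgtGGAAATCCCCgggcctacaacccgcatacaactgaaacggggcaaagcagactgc
ICAM1 (chr19:10270870-10271119, plus strand): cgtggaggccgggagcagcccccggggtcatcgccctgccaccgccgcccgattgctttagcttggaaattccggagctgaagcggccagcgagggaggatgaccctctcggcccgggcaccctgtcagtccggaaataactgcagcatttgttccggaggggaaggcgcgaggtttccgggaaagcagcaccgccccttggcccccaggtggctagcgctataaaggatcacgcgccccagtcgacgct

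**Figure D3:**
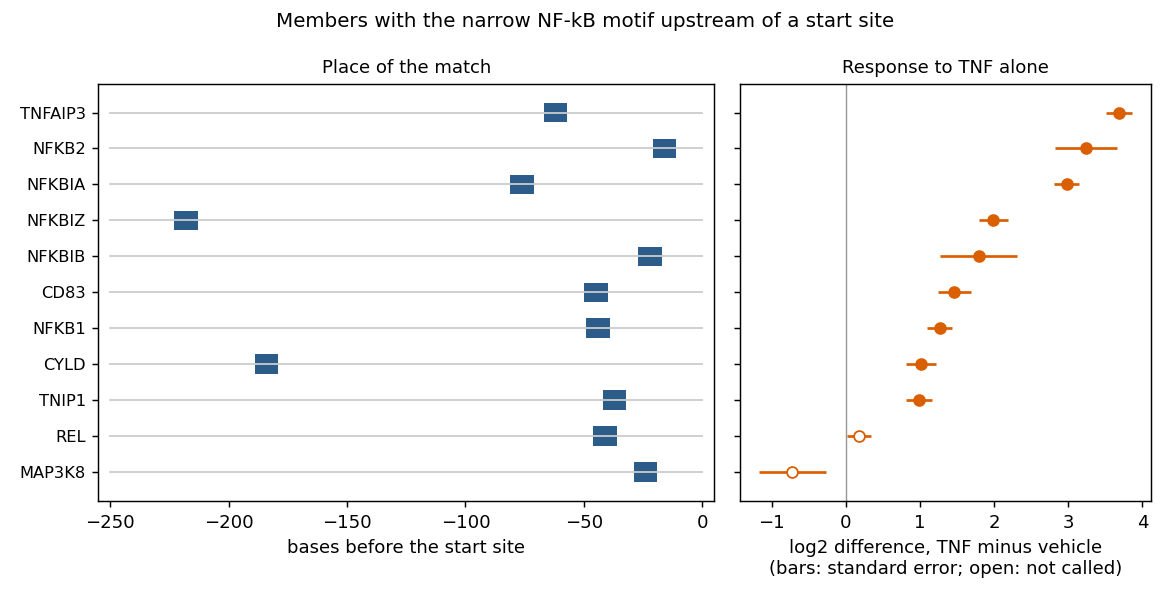
Left, position of the narrow motif in bases before the start site (x axis) for the 11 members that hold it, as blocks on grey lines that span the window searched. Right, log2 difference of TNF minus vehicle with standard error, open where not called. The matches of NFKBIZ and CYLD lie farthest from the start site, and MAP3K8 and REL are the open points.

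Of the 5 tested kinases grouped as upstream of the IkB proteins, IKBKE alone was called with TNF. It encodes IKK-epsilon, an inducible kinase related to the IkB kinases that also acts in interferon induction. Its signals were 308, 344, 318, 297 and 215 with TNF, against 58.6 to 168 (median 145) in vehicle. The groups did not overlap (2.53-fold, log2 1.34 ± 0.24, adjusted p = 1.26e-04). The catalytic IkB kinases CHUK and IKBKB were not called, at log2 0.38 ± 0.19 and -0.06 ± 0.16. Neither were MAP3K7 (TAK1, which activates them), at -0.02 ± 0.16, nor MAP3K8 (TPL2, which p105 holds inactive). MAP3K8 was dim, at 37.9, 42.4, 41.2, 35.5 and 17.2 units with TNF against 44.1 to 70.5 (median 58.5) in vehicle, and although all TNF arrays were the lower ones it did not pass (log2 -0.72 ± 0.45, adjusted p = 0.366). MAP3K14, the NIK kinase of the non-canonical branch, was too dim to test, at 55.4, 8.6, 3.1, 15.4 and 7.4 units with TNF against 3.2 to 47.8 (median 16.6) in vehicle.

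Of 8 adaptors and ubiquitin ligases, SQSTM1, TRAF3 and RIPK2 rose with TNF. SQSTM1 encodes p62, a scaffold of TRAF6 signalling and an autophagy receptor. It had 2119, 2157, 2154, 1707 and 1516 units with TNF, against 497 to 899 (median 735) in vehicle. Every TNF array was above vehicle (2.8-fold, log2 1.49 ± 0.17, adjusted p = 3.36e-08). TRAF3, which directs degradation of NIK, rose by log2 0.79 ± 0.21 (adjusted p = 0.00847), with 0.39 in set 1 and 1.24 in set 2 (adjusted p = 0.592 and 4.84e-04). RIPK2, the kinase that relays NOD receptor signals, rose by log2 0.67 ± 0.18 (adjusted p = 0.00782), to means of 481 ± 30.5 with TNF and 307 ± 19.7 in vehicle (SD, n = 5 and 6). TRAF1, TRAF6, TRADD, TAB2 and BIRC2, which recruit or ubiquitinate parts of the receptor complex, were not called and lay between log2 -0.43 (TRAF6) and 0.47 (TRAF1).

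Among the brakes, TNFAIP3, CYLD and TNIP1 rose with TNF and TNIP2 was not called. TNFAIP3 encodes A20, a ubiquitin-editing enzyme that shuts off receptor complexes. It gave 3397, 3719.8, 3539, 2424 and 2451 units with TNF, against 200.2 to 302 (median 228) in vehicle. The TNF arrays were all far above vehicle (12.9-fold, log2 3.69 ± 0.17, adjusted p = 9.20e-18), with 3.68 in array set 1 and 3.65 in set 2. TNIP1, which encodes the A20-binding protein ABIN1, had 1367, 1219, 1256, 1193 and 1347 units with TNF, against 502 to 814 (median 679.9) in vehicle. These groups did not overlap (1.98-fold, log2 0.98 ± 0.18, adjusted p = 1.27e-04), although the call was lost when all probe sets of the gene were averaged. CYLD, a deubiquitinase of NEMO and TRAF proteins, had 339, 500.1, 286, 365 and 291 units with TNF, against 119 to 209 (median 194) in vehicle. The lowest TNF array exceeded the highest vehicle array (log2 1.01 ± 0.21, adjusted p = 5.59e-04). TNIP2 (ABIN2) differed by log2 0.26 ± 0.17 (adjusted p = 0.375). TNIP3 (ABIN3) was below the filter at 24.7, 33.4, 21.3, 11.3 and 18.3 units with TNF and 3.2 to 20.4 (median 4.75) in vehicle. Without the filter its difference was 1.71 ± 0.68 with TNF (adjusted p = 0.152) and 2.46 ± 0.68 with RA plus TNF (adjusted p = 0.0112).

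Of 7 response genes 6 rose with TNF. ICAM1, the adhesion molecule that binds leukocyte integrins, had 567, 453, 516, 679 and 603 units with TNF, against 5.6 to 64.4 (median 25.1) in vehicle. Every TNF array was above vehicle, where the mean lay below the array medians, so the size of the change is uncertain (log2 4.84 ± 0.36, adjusted p = 2.08e-12). IER3, an immediate early gene that modulates cell survival, had 123, 183, 119, 124 and 133 units with TNF, against 7.7 to 59.9 (median 23.8) in vehicle. Its vehicle level was also below the array medians, and the groups did not overlap (log2 2.69 ± 0.40, adjusted p = 5.00e-06). SOD2, the mitochondrial superoxide dismutase, was read from its only single-symbol probe set and had 419.6, 516, 560.3, 234 and 229 units with TNF, against 88.4 to 201 (median 112) in vehicle. No TNF array was within the vehicle range (3.01-fold, log2 1.59 ± 0.28, adjusted p = 9.54e-05). CD83, a surface marker of activated dendritic cells, had 304, 310.0, 401, 199 and 242 units with TNF, against 61.4 to 151 (median 99.7) in vehicle. All TNF arrays were the higher ones (2.75-fold, log2 1.46 ± 0.22, adjusted p = 9.94e-06). TNFAIP2, an inducible gene linked to membrane protrusions, had 586, 574, 616, 723 and 757 units with TNF, against 273 to 327 (median 308) in vehicle. Again the groups stood apart (2.24-fold, log2 1.17 ± 0.17, adjusted p = 2.71e-06). TNFAIP8, an inhibitor of apoptosis, differed by 0.56 ± 0.19 (adjusted p = 0.0448) with overlapping groups, and neither array set alone passed (adjusted p = 0.137 and 0.347). GADD45B, a stress sensor that restrains JNK signalling, was not called (log2 0.02 ± 0.21, adjusted p = 0.967), with 196, 147, 189, 147 and 150.3 units with TNF and 132 to 219 (median 168) in vehicle.

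RA plus TNF against vehicle called 21 of the 33 members higher and 0 lower (background 11.7% higher and 7.42% lower), at a median of 0.98 over the members and 0.05 over all genes. These were the 20 members called with TNF alone and REL. All arrays with RA plus TNF were above all vehicle arrays in 17 of the 33 tested members, and in 5.8% of all genes. The called members that overlapped were REL, NFKBIB, TRAF3 and RIPK2, and of the 1445 genes called higher over the whole array 47.8% did not overlap. TNFAIP3 had 3517, 3616, 3435, 2569 and 2976 units with RA plus TNF (log2 3.82 ± 0.17 against vehicle, adjusted p = 1.47e-18). NFKBIA had 10384, 10735, 11098, 5781 and 5102 units (log2 3.15 ± 0.17, adjusted p = 9.70e-17). Every array of both genes lay above vehicle, and the 3 highest NFKBIA values were those of array set 1. REL had 482, 636, 612, 581 and 642 units with RA plus TNF, against 389.9 to 508 (median 416) in vehicle (log2 0.56 ± 0.16, adjusted p = 0.0104). Within the sets REL gave 0.52 and 0.63, neither of them called. The call was also lost with averaged probe sets and without the array set in the fit. The second probe set of REL had 275, 221, 302, 373 and 545 units with RA plus TNF, against 285 to 374 in vehicle. NFKBIB gave 3.03 in set 1 and -0.06 in set 2 (adjusted p = 0.00925 and 0.945). Against RA alone, RA plus TNF called 18 members higher and 0 lower (background 7.63% higher and 4.55% lower), with the smallest adjusted p for NFKBIA (4.07 ± 0.18), ICAM1 (4.36 ± 0.38) and TNFAIP3 (3.60 ± 0.18) on the log2 scale. NFKBIB (1.00 ± 0.54) and RIPK2 (0.47 ± 0.18) did not pass there (adjusted p = 0.265 and 0.0958).

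Adding RA to TNF raised 4 members above TNF alone, namely IER3, IKBKE, ICAM1 and SOD2, and lowered 0 (background 4.6% higher and 2.69% lower). The members' median was 0.17, against 0.04 over all genes. No Rel subunit, IkB gene or brake was called, and their log2 differences ran from -0.29 (NFKB2) to 0.38 (REL). IER3 had 648, 699, 694, 387 and 434 units with RA plus TNF, against 123, 183, 119, 124 and 133 with TNF. All 5 combined wells were above all TNF wells (4.31-fold, log2 2.11 ± 0.41, adjusted p = 5.06e-04), with 2.41 in set 1 and 1.65 in set 2, where it was not called (adjusted p = 0.1). IKBKE had 578, 632, 638, 698 and 680.3 units with RA plus TNF, against 308, 344, 318, 297 and 215 with TNF. Its groups did not overlap (2.3-fold, log2 1.20 ± 0.25, adjusted p = 0.00121), both sets alone called it (1.05 and 1.43), and its second probe set rose by 0.86 ± 0.23 (adjusted p = 0.0149). ICAM1 had 1048, 957, 976, 2037 and 1454 units with RA plus TNF, against 567, 453, 516, 679 and 603 with TNF. The combined wells were all higher (2.32-fold, log2 1.21 ± 0.38, adjusted p = 0.0416), but the call was lost under 16 of 20 alternatives, each set alone among them (1.08 and 1.41, adjusted p = 0.1 and 0.203). SOD2 had 1077, 1175, 1754, 467 and 248 units with RA plus TNF, against 419.6, 516, 560.3, 234 and 229 with TNF. The ranges overlapped, and the lowest arrays of both groups were those of set 2 (2.18-fold, log2 1.12 ± 0.29, adjusted p = 0.0112). SOD2 gave 1.52 in set 1 and 0.53 in set 2 (adjusted p = 0.447), and its call was lost without RA plus TNF replicate 3, the highest array. NFKBIA and TNFAIP3 differed by 0.18 ± 0.18 and 0.13 ± 0.18 between RA plus TNF and TNF (adjusted p = 0.68 and 0.784). For NFKBIA the array sets went opposite ways. In set 1 its log2 values were 8.445, 8.204 and 8.276 with RA plus TNF, against 7.889, 7.84 and 7.956 with TNF. In set 2 they were 7.605 and 7.567 with RA plus TNF, against 7.625 and 7.9 with TNF.

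**Figure D4:**
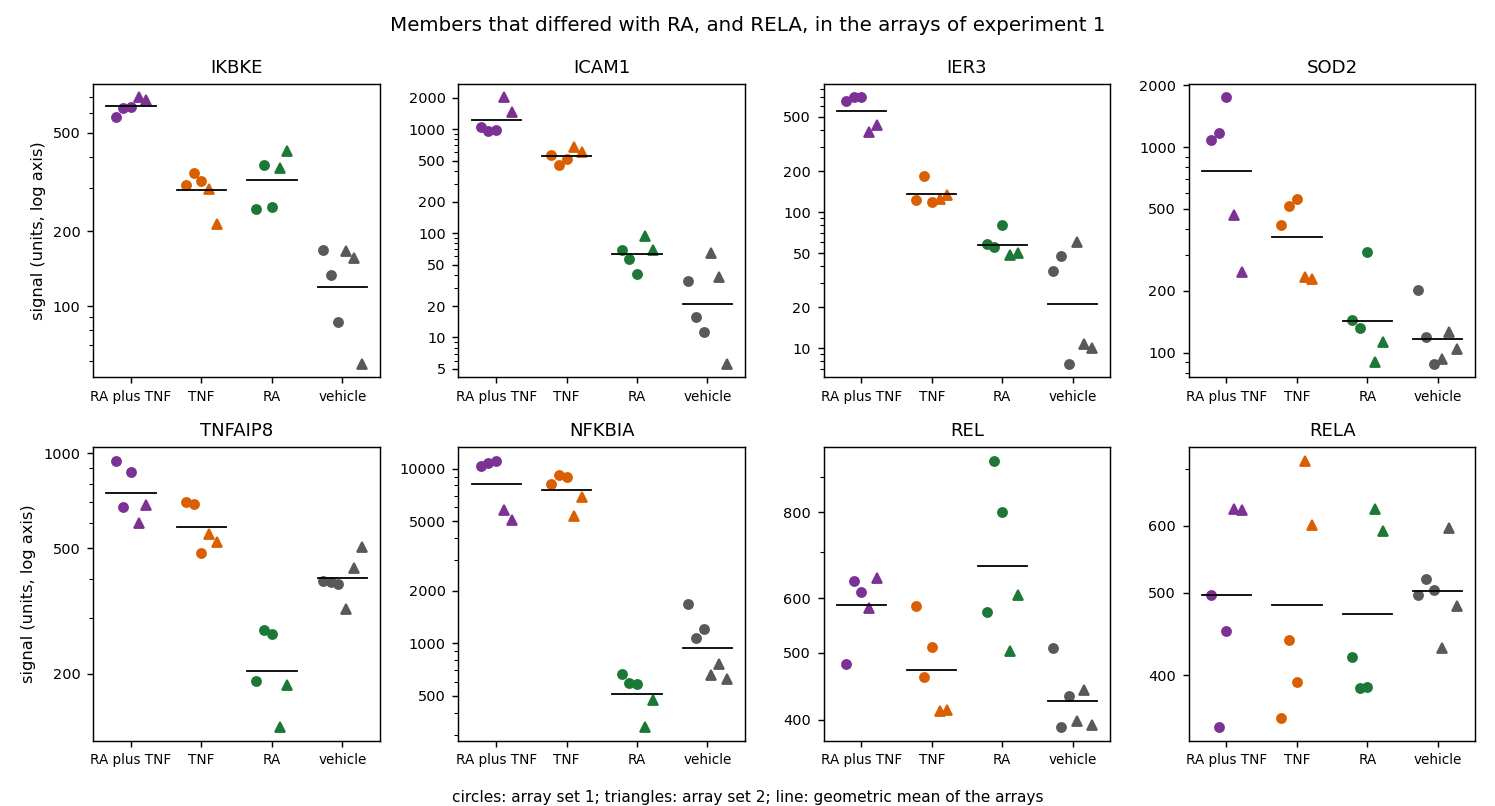
Signal on a log axis (units) in every array of experiment 1 for the members that were called with RA or with RA added to TNF, and for RELA, with circles for array set 1, triangles for array set 2 and a line at the geometric mean. IKBKE, ICAM1 and IER3 are highest with RA plus TNF, TNFAIP8 and NFKBIA are lowest with RA, and the groups of RELA overlap.

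RA alone at 40 h changed 6 members, with IKBKE, ICAM1, IER3 and REL higher and NFKBIA and TNFAIP8 lower (background 2.77% higher and 1.37% lower). The median over the members was -0.01. IKBKE had 246, 370.4, 251, 359 and 421 units with RA, against 58.6 to 168 (median 145) in vehicle. The RA arrays were all higher (2.75-fold, log2 1.46 ± 0.24, adjusted p = 6.42e-05), each set alone called it (1.12 and 1.92), and the second probe set rose by 1.07 ± 0.22. ICAM1 had 68.8, 57.1, 40.5, 95.1 and 69.4 units with RA, against 5.6 to 64.4 (median 25.1) in vehicle. These ranges overlapped at low signals (log2 1.69 ± 0.36, adjusted p = 0.00246). The second probe set of ICAM1 had 35.6, 35.7, 16.6, 95.9 and 107.6 units with RA, against 3.6 to 68.1 in vehicle. In array set 1 its RA signals were below the vehicle ones, though ICAM1 was still called with averaged probe sets. Of the 5 members called with RA that had further tested probe sets, 2 had another called in the same direction. IER3, also low, had 58.2, 55.6, 80.6, 48.1 and 50.2 units with RA, against 7.7 to 59.9 (median 23.8) in vehicle. Its call (log2 1.44 ± 0.40, adjusted p = 0.0268) was lost under 11 of 21 alternatives. REL had 572, 950.1, 800.1, 503 and 608 units with RA, against 389.9 to 508 (median 416) in vehicle. The lowest RA array of REL lay inside the vehicle range (1.58-fold, log2 0.66 ± 0.16, adjusted p = 0.00838), and neither set alone called it (0.71 and 0.59). Averaged probe sets and a fit without the array set also lost this call.

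TNFAIP8 and NFKBIA fell with RA alone and were also the members for which the effect of RA differed with TNF. TNFAIP8 had 189.9, 274, 267, 135 and 184 units with RA, against 320.5 to 506 (median 392) in vehicle. Every RA array was below vehicle (log2 -0.98 ± 0.19, adjusted p = 5.69e-04), with -0.76 in set 1, not called (adjusted p = 0.152), and -1.23 in set 2. With TNF present the signals were 948, 676, 874, 602 and 686 units with RA plus TNF against 701, 693, 482, 554 and 523 with TNF. These groups overlapped and did not pass the test (log2 0.42 ± 0.20, adjusted p = 0.242). NFKBIA had 663, 591, 586, 329.9 and 472 units with RA, against 621 to 1679.7 (median 921) in vehicle. Signals of the 2 groups overlapped between the array sets, but on the deposited scale relative to each array's median they did not (log2 -0.92 ± 0.17, adjusted p = 2.99e-04). The fall was -1.15 in set 1 and -0.62 in set 2, where it was not called (adjusted p = 0.121). The second probe set of NFKBIA, below the array medians in most vehicle arrays, differed by 2.05 ± 0.71 (adjusted p = 0.131), at 19.5 to 79.0 units with RA against 1.7 to 79.5 in vehicle. The interaction, which is the RA effect with TNF minus the RA effect without it, was 1.39 ± 0.27 for TNFAIP8 (adjusted p = 0.00766) and 1.10 ± 0.24 for NFKBIA (adjusted p = 0.0275). These 2 members of 33 were called, both in the higher direction (background 0.266% higher and 0.161% lower). A second probe set of TNFAIP8 gave 1.47 ± 0.27 (adjusted p = 0.00531), and that of NFKBIA gave -2.43 ± 1.02 (adjusted p = 0.538). The call for NFKBIA was lost or turned under 14 of 31 alternatives, array set 2 alone among them. That for TNFAIP8 was lost in each array set alone (1.30 and 1.46) and without the array set in the fit.

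The RA time course was read against a moving background, since the median log2 difference of all genes was 0.31 after 2 h of RA, 0.38 after 6 h, -0.17 after 16 h and 0.15 after 40 h. Array medians were 23.3 ± 1.63 units at 2 h, 22.2 ± 4.74 at 6 h (SD, n = 2 each) and 32.4 ± 2.69 at 16 h (SD, n = 3), beside 29.4 ± 4.29 in the 5 vehicle arrays of 16 h. Their part in the differences at 2 h and 6 h was not tested. At 2 h limma called 0 of the 33 members in either direction (background 0.84% higher and 0.024% lower), and 5 had an unadjusted p under 0.05. At 6 h REL, IKBKE, TNFAIP2, CD83 and GADD45B were called higher (15.2% of the members) and 0 lower (background 8.21% higher and 0.176% lower). At 16 h IKBKE was higher (3.03%) and NFKBIA and TNFAIP8 lower (6.06%), shares near the background (2.36% higher and 4.66% lower). At 40 h IKBKE and CD83 were higher (6.06%) and TNFAIP8 lower (3.03%), beside a background of 4.45% higher and 0.672% lower. The higher share at 40 h was thus also near that of all genes. Once each array was centred on the genes tested, no member was called higher at 6 h and TNFAIP8 was called lower there (-0.86 ± 0.18, adjusted p = 0.00523).

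IKBKE signals were 171 and 192 after 2 h of RA, 246 and 298 after 6 h, 342, 304 and 301 after 16 h and 359 and 421 after 40 h, beside 58.6 to 192 (median 156) in the 8 vehicle arrays. From 6 h on every RA array was above every vehicle array. Relative to the median of all genes the log2 differences were 0.97 at 6 h, 1.18 at 16 h and 1.47 at 40 h, and as fitted they were 1.35 ± 0.32, 1.01 ± 0.27 and 1.62 ± 0.32 (adjusted p = 0.00762, 0.0206 and 9.79e-04). The call at 6 h was lost under 5 of 18 alternatives, that at 16 h under 4 of 19 (the replicate block and each RA array of 16 h left out) and that at 40 h without RA replicate 5. TNFAIP8 signals were 328 and 302 after 2 h of RA, 228 and 255 after 6 h, 130.4, 164 and 175 after 16 h and 135 and 184 after 40 h, beside 320.5 to 512 (median 463) in vehicle. All RA arrays from 6 h on lay below vehicle, the lowest at 16 h. The differences relative to all genes were -0.83, -1.47 and -1.46 at 6, 16 and 40 h, where only the last 2 passed as fitted (-1.63 ± 0.23, adjusted p = 7.63e-06, and -1.31 ± 0.26, adjusted p = 0.00122). At 16 h TNFAIP8 was called under all 19 alternatives, and at 40 h it was lost without RA replicate 4 and with averaged probe sets.

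NFKBIA signals were 439.9 and 347 after 2 h of RA, 377 and 426 after 6 h, 348, 434 and 446 after 16 h and 329.9 and 472 after 40 h, beside 432 to 765 (median 609) in vehicle. Of the 9 RA arrays 5 lay below the vehicle range. Relative to all genes the differences were -0.58, -0.54, -0.52 and -0.58 from 2 to 40 h, and the fitted value passed at 16 h (-0.69 ± 0.20, adjusted p = 0.0341). The call at 16 h was lost or turned under 8 of 19 alternatives, among them a replicate left out. CD83 had 131 and 121 units at 6 h, 171, 167 and 113 at 16 h and 206 and 139 at 40 h, beside 61.4 to 137 (median 84.0) in vehicle. Both RA arrays at 40 h lay above the vehicle range (log2 1.11 ± 0.29, adjusted p = 0.0138), but the call was lost without either of them. CD83 at 6 h differed by 0.94 ± 0.29 as fitted and 0.56 relative to all genes. The other calls at 6 h were 0.81 ± 0.21 for REL, 0.81 ± 0.21 for TNFAIP2 and 0.79 ± 0.24 for GADD45B, and relative to all genes 0.43, 0.43 and 0.41. Their signals at 6 h were 492 and 596 for REL, 421 and 378 for TNFAIP2 and 229.9 and 251 for GADD45B. Vehicle gave 349 to 517 (median 402), 252 to 436 (median 288) and 154 to 219 (median 191) for the same 3 genes, so that GADD45B alone stood above its vehicle range in both arrays. TNFAIP3, whose rise with TNF was 12.9-fold, was not called at any time with RA, and its highest value relative to all genes was 0.49 at 40 h.

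**Figure D5:**
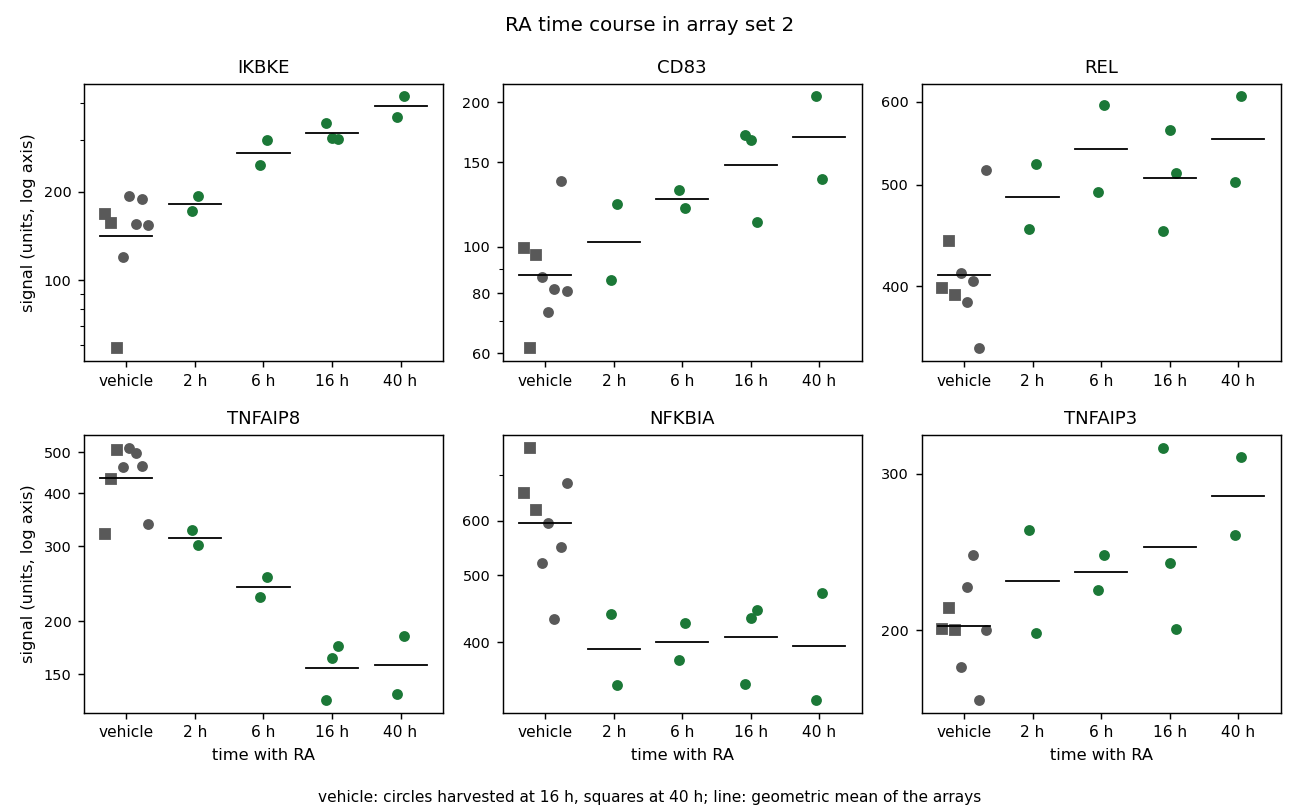
Signal on a log axis (units) against time with RA for 6 members in array set 2, with a line at the geometric mean. Vehicle arrays are at the left, circles taken as harvested at 16 h and squares at 40 h. IKBKE lies above vehicle from 6 h on and TNFAIP8 below it, while the TNFAIP3 arrays overlap with vehicle at 2 h, 6 h and 16 h.

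A list of 50 further components of TNF, Toll and interleukin 1 receptor signalling was read in the same fits. Of these 45 had a probe set and 43 were tested in experiment 1. With TNF alone 4 were higher (9.3%, beside 6.69% of all genes) and 1 lower (2.33%, beside 4.62%), at a median of 0.03. They were the receptor CD40 (0.84 ± 0.17), the adaptors MYD88 (0.74 ± 0.18) and TANK (0.52 ± 0.17), the ubiquitin ligase PELI1 (0.71 ± 0.24) and its relative PELI2 (-1.12 ± 0.25). RA plus TNF against TNF called 3 higher (6.98%, beside 4.6%) and 2 lower (4.65%, beside 2.69%). The higher ones were TNFRSF1B, the second TNF receptor (0.93 ± 0.19), CD40 (0.72 ± 0.18) and XIAP, a caspase inhibitor (0.74 ± 0.23). CUL1 (-0.67 ± 0.18) and RBCK1 (-0.53 ± 0.15), both parts of ubiquitin ligases, were the lower ones. RA alone called XIAP (0.79 ± 0.22), which is 2.33% of the list beside 2.77% of all genes, and the interaction called 0 components by limma (1 of 43 at an unadjusted p under 0.05). For RA alone and for TNF alone the shares were thus near those of all genes. RA plus TNF against vehicle called 10 higher (23.3%, beside 11.7%) and 1 lower (2.33%, beside 7.42%). In the time course, of 44 tested, 0 were called after 2 h, 7 were higher after 6 h (15.9%, beside 8.21%), 1 was lower after 16 h (2.27%, beside 4.66%) and 3 were higher after 40 h (6.82%, beside 4.45%).

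Of 35 genes known as NF-kB targets, the members left out, 32 had a probe set and 28 were tested in experiment 1. The filter used the mean over all arrays of the experiment, so targets bright only with TNF could enter the 28. In the time course, which had no TNF, 21 passed it. The list was chosen with earlier results of these data known, so its shares are described and are no independent support. TNF raised 19 (67.9%, beside 6.69% of all genes) and lowered 0, at a median of 1.74, with CXCL10 (7.49 ± 0.51), IL4I1 (5.84 ± 0.46), CCL2 (3.91 ± 0.36), BCL2A1 (3.73 ± 0.29) and MMP9 (3.72 ± 0.27) of smallest adjusted p. Adding RA to TNF raised 10 (35.7%, beside 4.6%) and lowered 3 (10.7%, beside 2.69%). Among the 10 were the chemokines CXCL8 (3.14 ± 0.34) and CCL2 (2.75 ± 0.38), the cytokine IL1B (2.56 ± 0.25), G0S2 (3.24 ± 0.23) and the transcription factor IRF1 (1.19 ± 0.19). RA alone raised 7 (25%, beside 2.77%) and lowered 1, with BCL2A1, a survival factor, at 2.55 ± 0.29 and IRF1 at 1.49 ± 0.18. The interaction was called for G0S2 (2.22 ± 0.32), IL1B (1.77 ± 0.34) and CXCL8 (2.02 ± 0.47), or 10.7% beside 0.266%. RA plus TNF against vehicle called 22 of the 28 higher (78.6%, beside 11.7%) and 1 lower. In the time course 21 targets were tested, against the same moving background. Of these 3 were higher after 2 h (14.3%, beside 0.84%), 6 after 6 h (28.6%, beside 8.21%), 7 after 16 h (33.3%, beside 2.36%, with 1 lower) and 8 after 40 h (38.1%, beside 4.45%).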

How the data were processed

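Transcripts of THP-1 cells were read on 33 arrays of the Affymetrix HG-U133 Plus 2 design. Per the submitters' processing notes and the file headers, the authors made signals with GCOS and deposited, for each probe set, log2 of its signal over the array median (GCOS version not given in the sources used here). Each array's signals were recovered as 2 to the power of the value minus the array's lowest value. All recovered signals under 8 units lay on a grid of 0.1 units within 0.006, and trimmed means (2% left off each end) were 149.98 to 150.07. Of 54675 probe sets, 41091 carry 1 gene symbol in the platform annotation, 1801 several and 11721 none, and 62 are controls. Genes were tested where their brightest probe set's mean linear value reached the median of all probe sets (12393 genes in experiment 1 and 12503 in the time course).

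Deposited log2 values were fitted with limma 3.58.1 in R 4.3.3 (lmFit, eBayes with trend, Benjamini-Hochberg adjustment over all genes tested), a test also run on simulated data. Experiment 1 used 21 arrays with array set as covariate (16 residual degrees of freedom) and the time course 17 arrays of set 2 (12 residual degrees of freedom). Pandas 2.3.3 and matplotlib 3.10.9 handled the values and figures. Array values are given for up to 15 members of smallest adjusted p with TNF, up to 10 in each RA comparison and up to 6 per time point, with others added for their role, and up to 5 genes of each further list are named. Members, lists and motifs were chosen with earlier results of these data known. Alternatives covered scaling, offset, filter, probe sets, array set, vehicle arrays, a replicate block and each array left out. The number of arrays limits the precision. BCL3, BIRC3, TRAF2 and RIPK1 were not analysed here.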

Additional observations from a re-analysis of the deposited data

Results flagged for a closer look

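Among 95 groups of 4 to 10 arrays examined for 19 members, 2 held an array apart from the rest by Dixon's criterion, and chance alone sets apart about 1 group in 20. GADD45B in TNF replicate 2 had a log2 value relative to the array median of 1.87 (147 units), and the next TNF array had 2.39 (189 units). TNIP1 in vehicle replicate 3 of the 40 h wells had a log2 value of 3.47 (502 units), and the next vehicle array had 4.32 (639.6 units). The effect of RA differed with and without TNF for NFKBIA, at an interaction of 1.10 on the log2 scale, and for TNFAIP8, at 1.39.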

How the results depend on the processing

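Of the 15 members named with TNF alone 14 were called under all 21 alternatives, and TNIP1 was lost when all probe sets of a gene were averaged. Of the 15 named with RA plus TNF against vehicle 14 were likewise called throughout, CYLD being lost under the same averaging, and all 10 named against RA alone were. Further members were called under other scalings. With TNF alone BIRC2 was called lower with 16 units added to the signals, quantile normalization or uncentred signals. CHUK was called higher with TNF once arrays were centred on the genes tested (limma adjusted p = 0.0454). With RA plus TNF against vehicle IKBKB was called lower under all of these scalings (log2 -0.31 ± 0.11 with centring, limma adjusted p = 0.0397). For RA plus TNF against TNF 4 members were called, and in array set 2 alone 2 (IKBKE and SQSTM1, the second not among the 4), and without the array set term 2 (IER3 and IKBKE). TNFAIP2, also not among the 4, was called higher with 16 units added, quantile normalization and uncentred signals. It was also called with centring on the genes tested (log2 0.44 ± 0.13, limma adjusted p = 0.0215). REL, another not among them, was called higher with averaged probe sets. For RA alone the 6 members became 3 in array set 1 alone, 3 with averaged probe sets and 3 without the array set term. For the interaction the 2 members became 1 in array set 1, 0 in array set 2, 1 with averaged probe sets and 0 without the array set term. At 6 h none of the 5 higher calls remained with centring on the genes tested, 16 units added to the signals, quantile normalization or uncentred signals, where the count was 1 each, TNFAIP8 lower. IKBKE was the 1 member called with averaged probe sets, the replicate block or vehicle arrays of 16 h only, and 3 were without the filter. At 16 h the replicate block left 1 of 3 members, and at 40 h of the time course 5 were called in place of 3 with 16 units added and with uncentred signals. Averaging the main probe set of NFKBIA with its dim second one turned its RA effect to 0.57 at 40 h and 0.18 at 16 h, and its interaction to -0.67. The cause was not tested. Same-numbered arrays did not deviate together (correlations of -0.0981 to 0.0788, none over 0.1), which gave no sign that the numbers pair the arrays. In array set 2 most groups of experiment 1 held 2 arrays, whose deviations from their mean mirror each other, which limits this check. The replicate block moved no other count by over 1.5 times. With each array left out in turn, the count was 2 to 4 for RA plus TNF against TNF, 18 to 20 for TNF, 19 to 21 for RA plus TNF against vehicle, 5 to 6 for RA, 18 to 20 for RA plus TNF against RA, and 1 to 2 for the interaction. In the time course it was 0 at 2 h, 0 to 7 at 6 h, 1 to 4 at 16 h and 1 to 3 at 40 h. The count of RA plus TNF against TNF was 2 without RA plus TNF replicate 3, and at 6 h it was 0 without replicate 2. At 16 h it was 1 without RA replicate 1 or 2, and at 40 h of the time course 1 without replicate 4 or 5. Over all genes, quantile normalization moved the split of calls, at 1165 higher and 1374 lower with TNF, where the deposited scale gave 829 and 572. For RA plus TNF against vehicle it was 1485 and 1947, where the deposited scale gave 1445 and 919, and for RA alone 512 and 532, where it gave 343 and 170. For RA plus TNF against TNF it was 782 and 817 (570 and 333 on the deposited scale), against RA 1142 and 1253 (946 and 564), and for the interaction 98 and 85 (33 and 20). In the time course it was 78 and 27 at 2 h (105 and 3), 295 and 176 at 6 h (1026 and 22), 736 and 817 at 16 h (295 and 583) and 682 and 659 at 40 h (557 and 84). Signals near the array medians, as for ICAM1 and IER3 in vehicle, limit the size of those changes.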
